A study of Mus musculus with 6 samples.

Results

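The genes described here are 48 mouse genes of DNA replication, chosen by name: the proteins that mark and license origins, the replicative helicase and its activators, the clamp and its loader, the polymerases and primase, the enzymes that finish the lagging strand and supply nucleotides, and the factors that rebuild chromatin behind the fork. Each was read from the probe with the highest mean signal over the 6 arrays, and was kept if it was detected (detection p under 0.01) on at least 1 array. Of the 48 genes, 40 passed, and 28 of these were detected on all 6 arrays. Over the whole platform 10676 genes or unnamed probes passed the same filter, 8336 of them named, and 8078 were detected on all 6 arrays.

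The study took T cells from spleen and lymph node of male C57BL/6 mice, cultured them for 20 to 21 h with splenocytes of the graft donor strain that had been depleted of T cells, and sorted CD3+ cells into CD69+ and CD69- fractions. CD69 is an early activation marker of T cells, and the sort separates cells by its presence on the surface after the culture. Tolerant mice had received a BDF1 tail skin graft together with donor-specific transfusion and the anti-CD40L antibody MR-1, and were taken at day 100. Rejecting mice had received the same kind of graft without that treatment and were taken at day 7, and naive mice had no graft. Each status gave both fractions, and each of the 6 samples went onto 1 Illumina MouseWG-6 array, starting from 0.55 µg of total RNA. There was no repeat of any sample, and the sources used here do not say whether animals were pooled or which arrays shared a slide. Tolerant mice differ from rejecting mice in treatment as well as in time after grafting, so status, treatment and time cannot be told apart.

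The arrays were alike in depth: the median non-normalized intensity ran from 161.5 to 174.2, and 12669 to 13469 of 45281 probes were detected per array. As a check of the sort, Cd69 itself was 1.53 ± 0.21 log2 units higher in CD69+ than in CD69- cells (moderated SE, 3 pairs, limma adjusted p = 0.00342), and all 6 listed activation genes were higher. Of 11 listed T cell markers 9 were measured, Cd3 chains among them, with a summed level of 144216 to 179700 in CD69+ cells and 208314 to 242156 in CD69- cells on the linear scale; 6 of the 9 were called lower, and Lck and Cd8a were not detected. No myeloid marker of 10 was detected. Of 9 B cell markers 2 were measured, Cd79b and Blk, while Ms4a1, Cd79a, Cd22 and Pax5 were not detected. Blk was called higher in CD69+ cells, by 2.32 ± 0.26, and Cd79b was not called. Of 7 class II genes 4 were measured. Cd74 and H2-Eb1 were called higher, by 2.37 and 1.59, and H2-DMa lower, by 1.23. Of 6 natural killer genes 3 were measured, and Klrb1c alone was called, at least 1.65-fold higher. The 3 measured erythroid markers summed to 1258 to 5397 in CD69+ cells and 2697 to 37395 in CD69- cells. Of 5 plasma cell genes 2 were measured, Xbp1 and the dimmer Mzb1. Their sum was 12136 to 14239 in CD69+ cells and 5230 to 7331 in CD69- cells. The part of these other cell types in the differences below was not tested. Levels below are log2 of the background-corrected and quantile-normalized intensity. Values after ± are limma's moderated SE of the difference between fractions, from the fit over the 3 status pairs. Moderation pulls the variance of each gene towards a value estimated from all features, so this SE is not the plain spread of the 3 pairs. A gene was called higher or lower where limma's Benjamini-Hochberg adjusted p was under 0.05 over all 10676 features.

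In a resting cell the origin recognition complex marks the sites where replication can begin. Cdc6 and Cdt1 then load the ring-shaped Mcm2 to Mcm7 helicase, and Cdc7 kinase with Cdc45, Mcm10 and the GINS complex turn it on at the start of S phase. Primase and the polymerases copy the opened strands, held by the sliding clamp Pcna and its loader. Resting T cells keep much of this machinery low and build it up when they leave quiescence, in large part through E2F transcription factors that act at the promoters of these genes.

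Promoter sequence from 250 bases before to 50 bases after the annotated start was given for 40 of the 48 genes, in 50 windows. The letters of 2 motifs were searched on both strands: the E2F-type octamers TTTCCCGC and TTTGGCGC, and CCAAT; neither motif holds the letters of the other. In the 250 bases before the start, an E2F-type octamer stood in 6 of 50 windows (12%), against 1.3% of 32851 windows of all genes. Over the whole 300 bases the count was 12 of 50 windows (24%), against 1.56% of all windows. CCAAT stood in 28 of 50 upstream windows (56%), against 33.8% of all windows. Genes that were called higher in CD69+ cells held an octamer in 9 of 29 cases, genes measured and not called in 1 of 4, and genes not detected in 2 of 7. Such a match describes the letters of the window and is no measurement of binding.

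The 6 upstream stretches below show 4 genes with an octamer (Cdc6, Cdca7, Mcm5 and Mcm6) beside 2 without one in this window (Mcm10, detected in CD69+ cells alone, and Rpa1, which was not called). Mcm5 and Mcm6 were picked after their values were seen. The sequences are RefSeq's, on build GRCm38.p6, printed 5′ to 3′ on the strand of the gene, with octamer and CCAAT matches of either strand in capitals. Cdc6 is chr11:98907901-98908150 on the plus strand, Cdca7 chr2:72475969-72476218 on the plus strand, and Mcm5 chr8:75109259-75109508 on the plus strand. Mcm6 is chr1:128359706-128359955, Mcm10 chr2:5012792-5013041 and Rpa1 chr11:75348384-75348633, all on the minus strand.
Cdc6: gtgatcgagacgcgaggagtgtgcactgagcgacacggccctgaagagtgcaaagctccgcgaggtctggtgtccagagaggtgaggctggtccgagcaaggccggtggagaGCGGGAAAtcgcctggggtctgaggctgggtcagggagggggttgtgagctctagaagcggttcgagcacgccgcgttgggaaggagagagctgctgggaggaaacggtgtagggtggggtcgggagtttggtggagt
Cdca7: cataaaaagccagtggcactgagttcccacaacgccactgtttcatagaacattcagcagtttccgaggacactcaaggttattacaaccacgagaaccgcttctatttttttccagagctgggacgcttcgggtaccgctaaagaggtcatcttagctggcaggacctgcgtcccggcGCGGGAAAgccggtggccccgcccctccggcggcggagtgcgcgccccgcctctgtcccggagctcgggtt
Mcm5: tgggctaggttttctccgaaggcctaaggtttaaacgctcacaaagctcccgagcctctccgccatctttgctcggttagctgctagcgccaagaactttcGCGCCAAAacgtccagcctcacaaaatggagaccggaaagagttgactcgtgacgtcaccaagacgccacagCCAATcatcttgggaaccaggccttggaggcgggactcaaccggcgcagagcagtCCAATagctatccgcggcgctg
Mcm6: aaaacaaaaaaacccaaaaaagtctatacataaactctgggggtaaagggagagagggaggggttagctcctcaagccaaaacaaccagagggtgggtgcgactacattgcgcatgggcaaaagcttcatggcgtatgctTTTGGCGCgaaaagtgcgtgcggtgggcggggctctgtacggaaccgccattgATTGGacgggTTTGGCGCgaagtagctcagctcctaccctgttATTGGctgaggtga
Mcm10: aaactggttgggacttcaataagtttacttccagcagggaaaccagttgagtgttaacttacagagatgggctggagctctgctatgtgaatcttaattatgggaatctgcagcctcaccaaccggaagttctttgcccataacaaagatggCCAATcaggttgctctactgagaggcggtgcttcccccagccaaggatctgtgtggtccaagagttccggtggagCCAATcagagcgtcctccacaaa
Rpa1: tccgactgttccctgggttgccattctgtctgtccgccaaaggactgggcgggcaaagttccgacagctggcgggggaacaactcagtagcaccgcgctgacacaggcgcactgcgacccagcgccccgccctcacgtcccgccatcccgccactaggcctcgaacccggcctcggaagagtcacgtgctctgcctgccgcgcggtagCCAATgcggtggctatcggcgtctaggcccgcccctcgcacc
Counted from the start, the octamer began at -138 in Cdc6, -71 in Cdca7, -149 in Mcm5 and at both -110 and -47 in Mcm6. In Mcm5, Mcm6 and Mcm10 the window also held 2 CCAAT boxes each, and the Rpa1 window held 1.

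**Figure D1:**
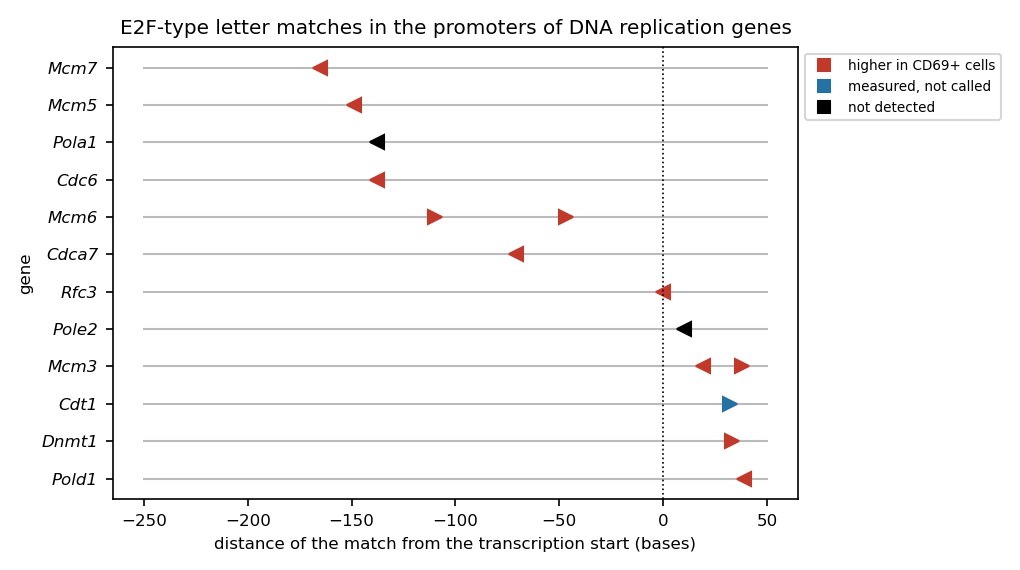
Positions of E2F-type octamers in the promoter windows of the 12 replication genes that hold one. The x axis gives the distance of each match from the annotated start in bases, triangles point along the strand of the match, and colours separate genes called higher in CD69+ cells, genes measured and not called, and genes not detected; the matches in Mcm6 lie at -110 and -47.

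The replication genes were higher in the CD69+ fraction in nearly every role. Of the 28 genes detected on all 6 arrays, 24 were called higher in CD69+ than in CD69- cells and 0 lower, against 28.5% of all features detected on all 6 arrays called higher and 34.3% lower. Over all 10676 features 62.7% were called in either direction, 3165 higher and 3532 lower, a split that became 3624 and 2616 when arrays were median-centred instead. The 4 that were not called are Cdt1, Cdc7, Rfc1 and Rpa1, and 1 of them, Rpa1, had an unadjusted p under 0.05 in the lower direction. No second tool was run. The median difference of the 28 was 1.16 log2 units, against -0.07 over all such features, with a range from -0.39 for Rpa1 to 4.13 for Cdca7. At least 2-fold higher were 15 of the 28, against 12.7% of features. Within single pairs the median of the 28 was 0.80 in tolerant, 1.31 in rejecting and 1.14 in naive mice.

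A further 12 genes were detected in CD69+ cells and on none or only some of the CD69- arrays, so that the filter itself favoured a difference. Cdc6, Mcm10, Rfc3, Pole, Rrm2, Tk1, Chaf1a and Rad54b were detected on all 3 CD69+ arrays and on no CD69- array, a pattern shown by 3.37% of all features. For these 8 only a minimum fold is given: the mean CD69+ level was set against the dimmest detected probe of each CD69- array, or against the gene itself where it was brighter. The adjusted p beside such a minimum is that of the fit on the levels as computed, and it does not test the minimum itself. Gins1 and Dut were detected on 1 of 3 CD69- arrays, and Gins2 and Uhrf1 on 2 of 3. With these genes included, 36 of the 40 kept genes were called higher and 0 lower, where 29.6% of all features were called higher and 33.1% lower. The counts by role below also include them and are to be read against the same shares. In bulk fractions such as these, fewer cells of a kind and less RNA per cell cannot be told apart.

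**Figure D2:**
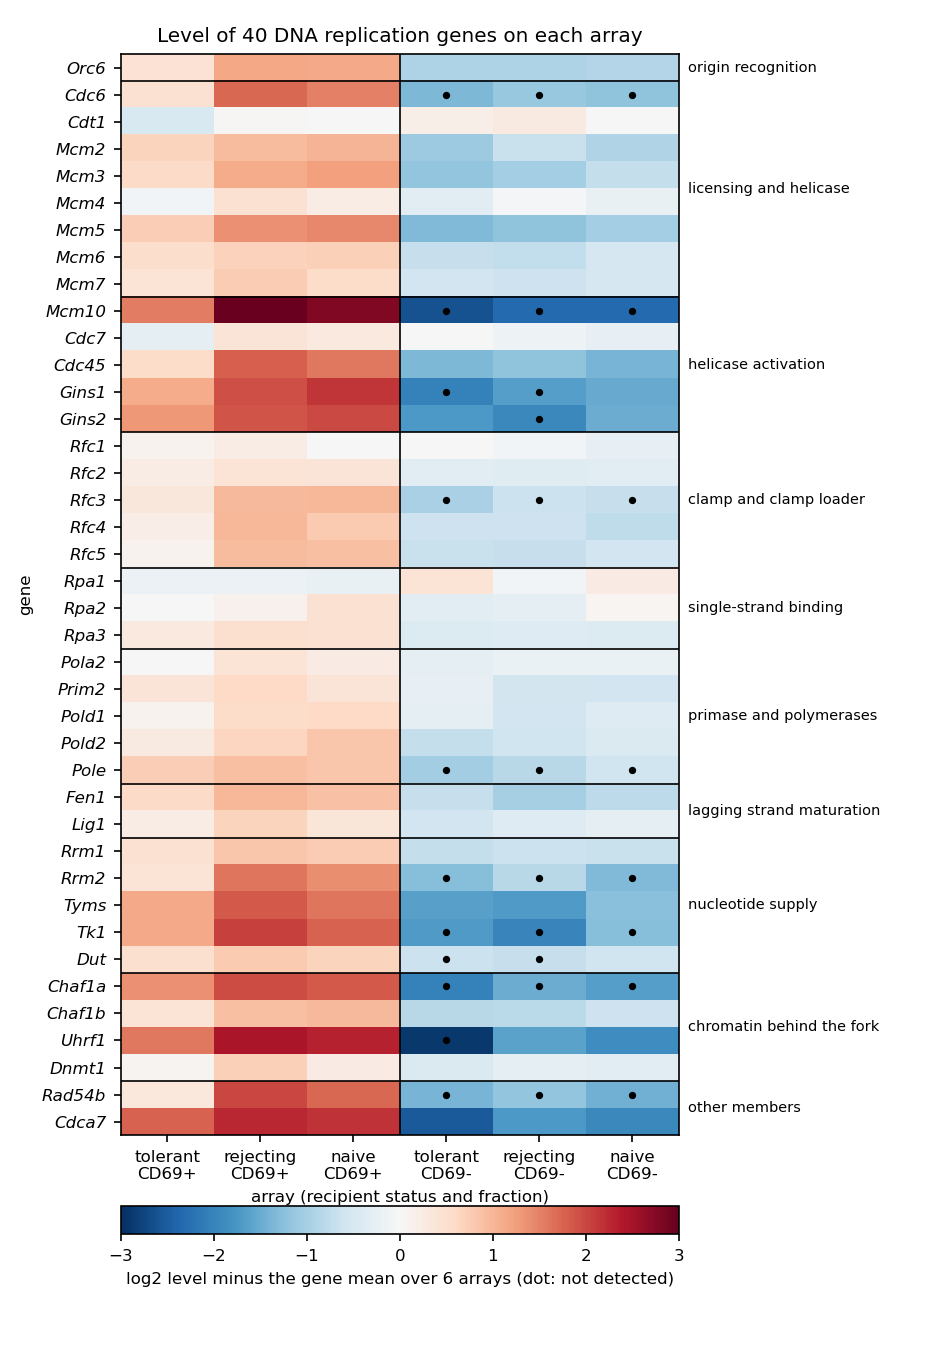
Level of each of the 40 kept genes on each array as the log2 difference from the gene's own mean over the 6 arrays, with the CD69+ arrays left of the CD69- arrays and genes grouped by role. Most rows change colour between the fractions, while Cdt1, Cdc7, Rfc1, Rpa1, Rpa2 and Mcm4 are among those with little contrast.

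**Figure D3:**
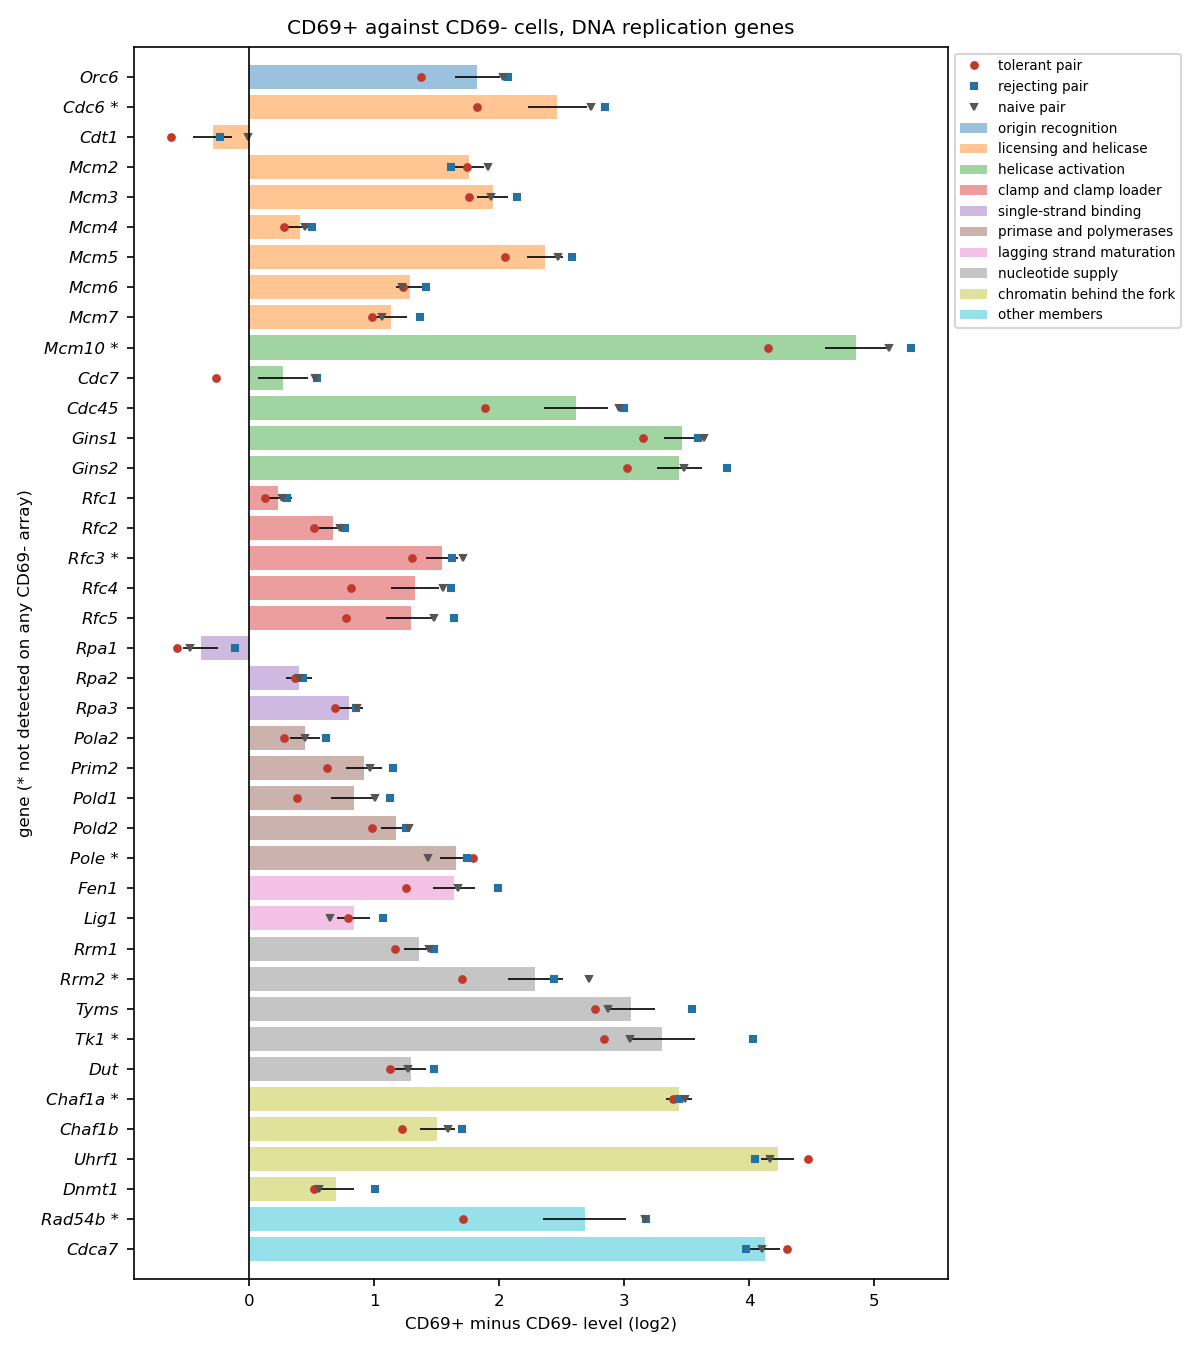
CD69+ minus CD69- level in log2 units for each kept gene, with bars for the limma estimate over 3 pairs, lines for its moderated SE, and points for the tolerant, rejecting and naive pair. Among genes detected on all 6 arrays the bars run from -0.39 for Rpa1 to 4.13 for Cdca7; an asterisk marks genes not detected on any CD69- array, whose bars rest on levels below detection.

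Origin recognition was represented by Orc6, a subunit of the complex that marks origins, since Orc1 and Orc2 were not detected. Orc6 stood at 11.30, 12.00 and 12.00 in tolerant, rejecting and naive CD69+ cells, against 9.92, 9.93 and 9.97 in tolerant, rejecting and naive CD69- cells. The fractions did not overlap, and the CD69- arrays were almost level with each other. The difference was 1.83 ± 0.18 (adjusted p = 0.00152).

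Among the licensing and helicase genes 7 of 8 kept genes were called higher, and 6 of the 7 detected on all 6 arrays. Cdc6, the ATPase that loads the helicase onto origins, had levels of 6.83, 8.07 and 7.88 in tolerant, rejecting and naive CD69+ cells, against 5.0, 5.23 and 5.15 in tolerant, rejecting and naive CD69- cells, where it was not well above background. It was thus at least 1.88-fold higher in CD69+ cells (adjusted p = 0.00145), and the tolerant CD69+ array was the lowest of the 3. Cdt1, which works with Cdc6 and is kept in check in S phase by degradation and by geminin, did not follow. Its levels were 11.54, 12.03 and 11.97 in tolerant, rejecting and naive CD69+ cells, against 12.16, 12.26 and 11.98 in tolerant, rejecting and naive CD69- cells. These ranges overlapped, and the difference of -0.29 ± 0.16 was not called (adjusted p = 0.164). Gmnn, which encodes geminin, was not detected. All 6 subunits of the helicase ring were called higher, yet by unequal amounts: 2.37 ± 0.15 for Mcm5, 1.95 ± 0.13 for Mcm3, 1.76 ± 0.12 for Mcm2, 1.29 ± 0.11 for Mcm6, 1.14 ± 0.13 for Mcm7 and 0.41 ± 0.11 for Mcm4. Mcm4 was the least secure of the 6, with an adjusted p of 0.0276 that came to 0.121 without the naive pair and 0.194 without the rejecting pair. It was 0.0718 without the replicate block. Of 2 dimmer Mcm4 probes, detected on 3 and 2 arrays, the probe detected on 2 arrays gave 0.81 and was not called (adjusted p = 0.177).

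Of the 5 factors that switch the loaded helicase on, 4 were called higher. Only 2 of the 5 were detected on all 6 arrays, and 1 of these was called. Mcm10, a scaffold needed to start unwinding, stood at 9.23, 10.66 and 10.48 in tolerant, rejecting and naive CD69+ cells, against 5.08, 5.37 and 5.36 in tolerant, rejecting and naive CD69- cells. All 3 CD69- values were below detection, so Mcm10 was at least 10.9-fold higher in CD69+ cells (adjusted p = 0.000728). Gins1 and Gins2, subunits of the GINS complex that joins Cdc45 and the Mcm ring in the active helicase, were called higher, in fits that include CD69- arrays without detection. Gins1 was at least 6.48-fold higher in the tolerant pair and at least 10.4-fold in the rejecting pair, and Gins2 at least 13.1-fold in the rejecting pair. Cdc45 was higher by 2.62 ± 0.26. Cdc7, the kinase that triggers origin firing by phosphorylating the Mcm ring, behaved differently. It had levels of 9.40, 10.07 and 9.95 in tolerant, rejecting and naive CD69+ cells, against 9.66, 9.52 and 9.43 in tolerant, rejecting and naive CD69- cells. The tolerant CD69+ array lay below all 3 CD69- arrays, while the rejecting and naive CD69+ arrays lay above them. Over the 3 pairs the difference was 0.27 ± 0.20 (adjusted p = 0.29), and without the tolerant pair it was 0.54 and called (adjusted p = 0.0126).

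Of the clamp and clamp loader genes, Pcna, the sliding clamp, was not detected. Rfc3, a small subunit of the loader that opens the clamp, stood at 7.59, 8.24 and 8.27 in tolerant, rejecting and naive CD69+ cells, against 6.28, 6.62 and 6.56 in tolerant, rejecting and naive CD69- cells, all 3 below detection. That placed Rfc3 at least 2.55-fold higher in CD69+ cells (adjusted p = 0.00121). The other small subunits Rfc4, Rfc5 and Rfc2 were higher by 1.33 ± 0.19, 1.30 ± 0.20 and 0.67 ± 0.11, although the call of Rfc2 was lost without the rejecting pair (adjusted p = 0.0583). Rfc1, the large subunit, had levels of 10.45, 10.58 and 10.36 in tolerant, rejecting and naive CD69+ cells, against 10.32, 10.28 and 10.09 in tolerant, rejecting and naive CD69- cells. These did not overlap, but they lay close together, and the difference of 0.23 ± 0.11 was not called (adjusted p = 0.12).

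The 3 subunits of replication protein A, which coats single-stranded DNA, went separate ways. Rpa3 stood at 10.96, 11.15 and 11.12 in tolerant, rejecting and naive CD69+ cells, against 10.28, 10.29 and 10.26 in tolerant, rejecting and naive CD69- cells, a difference of 0.80 ± 0.11 (adjusted p = 0.00335). Rpa1, the large DNA-binding subunit, had 13.61, 13.60 and 13.55 in tolerant, rejecting and naive CD69+ cells, against 14.19, 13.71 and 14.02 in tolerant, rejecting and naive CD69- cells. Every CD69+ value of Rpa1 was below every CD69- value, but the difference of -0.39 ± 0.14 missed the threshold (adjusted p = 0.0606). It passed as lower in 5 alternative settings, with adjusted p from 0.0147 to 0.0473, and came to -0.16 (adjusted p = 0.443) when arrays were median-centred. Among these settings, no background correction and the authors' value table gave nearly the same values and are not separate checks. Rpa2 was higher by 0.40 ± 0.10 on its brightest probe (adjusted p = 0.0239), and a dimmer Rpa2 probe gave -1.71 (adjusted p = 0.00114), so the direction of Rpa2 depends on the probe. The Rpa2 call on the brighter probe was also lost without the naive pair (adjusted p = 0.104) and without the rejecting pair (adjusted p = 0.171).

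Primase and polymerase genes that could be measured were all called higher, 5 of 5, or 4 of 4 of those detected on all 6 arrays. Pola1, Prim1 and Pole2 were not detected. Pole, the catalytic subunit of the leading-strand polymerase epsilon, stood at 7.14, 7.29 and 7.23 in tolerant, rejecting and naive CD69+ cells, against 5.35, 5.55 and 5.79 in tolerant, rejecting and naive CD69- cells, none of them detected. It was at least 1.45-fold higher in CD69+ cells (adjusted p = 0.00106), and its CD69+ levels varied little with status. Pola2, the regulatory subunit of polymerase alpha, showed the smallest difference of the group. It had 9.90, 10.31 and 10.13 in tolerant, rejecting and naive CD69+ cells, against 9.62, 9.69 and 9.68 in tolerant, rejecting and naive CD69- cells, with no overlap and a difference of 0.45 ± 0.12 (adjusted p = 0.0258). The adjusted p of Pola2 was 0.1 without the naive pair and 0.192 without the rejecting pair. Pold1 and Pold2, of polymerase delta, were higher by 0.84 ± 0.18 and 1.17 ± 0.12, and Prim2, of primase, by 0.92 ± 0.14. The Pold1 call did not survive leaving out the naive pair (adjusted p = 0.0572) or the rejecting pair (adjusted p = 0.0697).

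Both enzymes that finish the lagging strand were called higher. Fen1, which trims the flaps of Okazaki fragments, stood at 12.46, 12.89 and 12.78 in tolerant, rejecting and naive CD69+ cells, against 11.21, 10.91 and 11.10 in tolerant, rejecting and naive CD69- cells (difference 1.64 ± 0.17, adjusted p = 0.00172). Lig1, which seals the nicks that remain, had 9.62, 10.07 and 9.75 in tolerant, rejecting and naive CD69+ cells, against 8.83, 9.0 and 9.10 in tolerant, rejecting and naive CD69- cells (difference 0.84 ± 0.13, adjusted p = 0.00475). In neither gene did the fractions overlap.

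All 5 nucleotide supply genes were called higher, and all by at least 2-fold in the fit. Only 2 of them, Tyms and Rrm1, were detected on all 6 arrays. Tk1, the thymidine kinase of the salvage pathway, stood at 8.23, 9.16 and 8.87 in tolerant, rejecting and naive CD69+ cells, against 5.39, 5.13 and 5.82 in tolerant, rejecting and naive CD69- cells, where it was not detected. It was at least 4.20-fold higher in CD69+ cells (adjusted p = 0.00109). Tyms, which makes thymidylate, was higher by 3.06 ± 0.19 and was detected on all 6 arrays. Rrm2, the S-phase subunit of ribonucleotide reductase, was at least 2.62-fold higher, and its partner Rrm1 was higher by 1.36 ± 0.12. Dut, which keeps uracil out of DNA by breaking down dUTP, had the smallest difference of the group. Its levels were 7.76, 8.07 and 7.95 in tolerant, rejecting and naive CD69+ cells, against 6.64, 6.59 and 6.68 in tolerant, rejecting and naive CD69- cells, of which only the naive CD69- array passed detection (difference 1.29 ± 0.12, adjusted p = 0.00147).

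Genes that restore chromatin and its methylation behind the fork were called higher in 4 of 4 kept cases, and Slbp was not detected. Only 2 of the 4, Chaf1b and Dnmt1, were detected on all 6 arrays. Uhrf1, which recruits Dnmt1 to hemimethylated DNA, stood at 10.90, 11.77 and 11.63 in tolerant, rejecting and naive CD69+ cells, against 6.43, 7.72 and 7.46 in tolerant, rejecting and naive CD69- cells. The tolerant array was the lowest of its fraction on both sides, and the tolerant CD69- array was below detection. The difference of 4.23 ± 0.13 (adjusted p = 0.000489) was well beyond the spread of the pairs. Dnmt1, the maintenance DNA methyltransferase, had 10.08, 10.72 and 10.24 in tolerant, rejecting and naive CD69+ cells, against 9.56, 9.71 and 9.68 in tolerant, rejecting and naive CD69- cells, without overlap. Its difference of 0.70 ± 0.14 (adjusted p = 0.0115) was lost without the rejecting pair (adjusted p = 0.0795). Chaf1a and Chaf1b, subunits of the histone chaperone that assembles nucleosomes on new DNA, were at least 8.15-fold higher and 1.51 ± 0.14 log2 units higher.

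Cdca7, known as a Myc and E2F target, and Rad54b, a helper of homologous recombination, complete the set. Cdca7 stood at 13.34, 13.82 and 13.73 in tolerant, rejecting and naive CD69+ cells, against 9.04, 9.84 and 9.62 in tolerant, rejecting and naive CD69- cells, a difference of 4.13 ± 0.12 (adjusted p = 0.000489). This was the largest difference among the 28 genes detected on every array. Rad54b had 6.81, 8.50 and 8.22 in tolerant, rejecting and naive CD69+ cells, against 5.10, 5.32 and 5.05 in tolerant, rejecting and naive CD69- cells, all 3 below detection. It was at least 2.23-fold higher in CD69+ cells (adjusted p = 0.00249), with the tolerant CD69+ array the lowest of the 3.

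**Figure D4:**
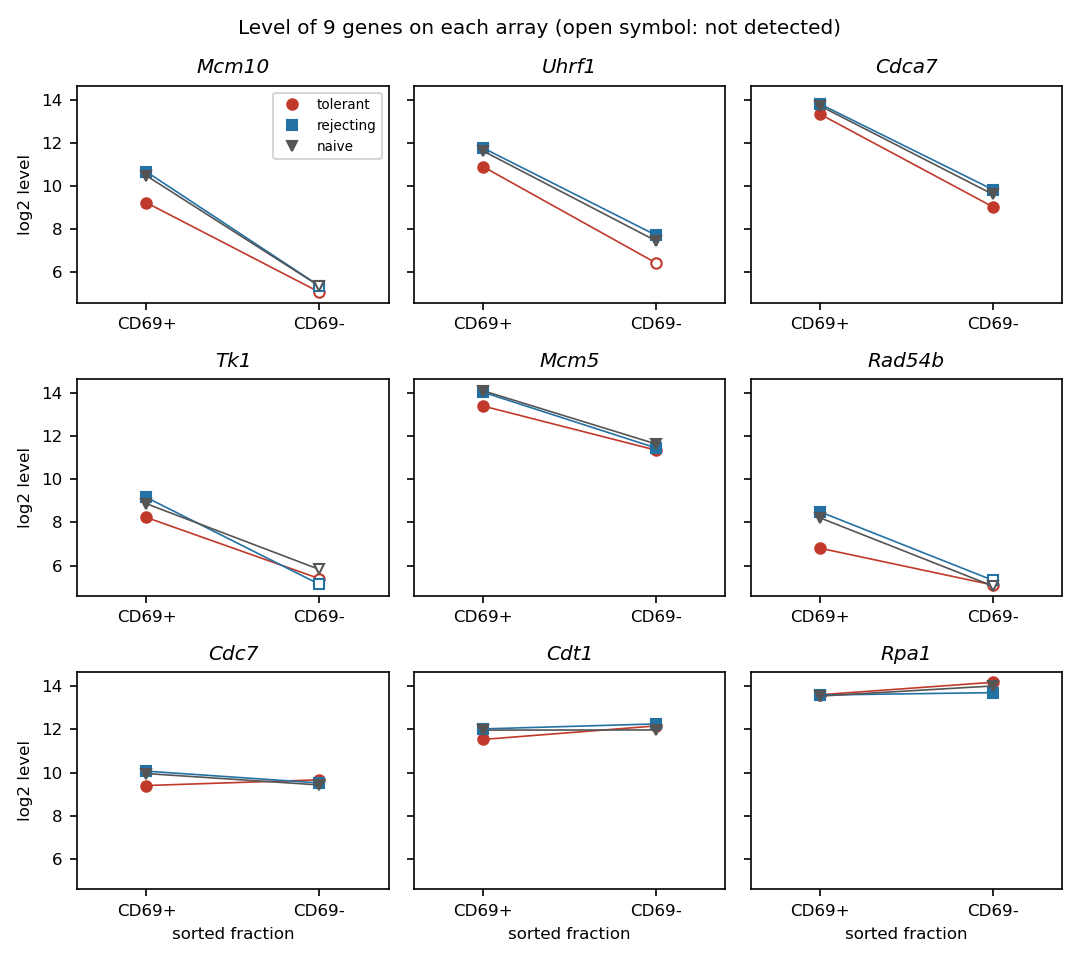
Log2 level on each of the 6 arrays for 9 of the replication genes, with CD69+ left of CD69- in each panel and symbols for the 3 statuses; open symbols mark levels below detection. The fractions lie apart in most panels and overlap for Cdt1 and Cdc7, while Rpa1 lies lower in CD69+ cells.

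Of further detected probes, 21 probes of 14 replication genes could be set against the chosen one, and 20 pointed the same way, the exception being the dimmer Rpa2 probe. Many of these probes were detected on only some arrays, such as those of Mcm10 and Tyms on 3 arrays and Rrm2 on 2. For such probes the filter itself favoured a difference, so their direction is weak support. The 8 genes that were not detected on any array (Orc1, Orc2, Gmnn, Pcna, Pola1, Prim1, Pole2 and Slbp) had non-normalized intensities of 123 to 251; none was told apart from the negative controls at the detection threshold, and no statement on their direction can be made. For Orc2, the nearest to the filter, the lowest detection p was 0.0107.

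Related gene groups gave a more mixed picture, to be read against the 29.6% of all features called higher and 33.1% lower, or 28.5% and 34.3% of those detected on all 6 arrays. Of 46 further replication genes 37 were measured, with 18 called higher and 8 lower; among the 30 detected on all 6 arrays 13 were higher, 7 lower and the median difference was 0.34. The largest differences in that list were those of Dctd and Dctpp1, which act on deoxycytidine nucleotides, at 3.74 ± 0.15 and 2.68 ± 0.16. Other nucleotide genes were lower: Samhd1, which breaks down dNTPs, fell by 1.48 ± 0.19, Rrm2b, the reductase subunit of resting cells, fell by 1.39 ± 0.11, and Tk2, the mitochondrial thymidine kinase, fell by 1.09 ± 0.11. These 3 were picked after their values were seen. Of 27 E2F and G1/S regulators 21 were measured, 13 higher and 5 lower. Among the 17 detected on all 6 arrays 10 were higher and 4 lower, with a median difference of 0.76. E2f1 was higher by 3.33 ± 0.22, in a fit that includes 2 CD69- arrays without detection. Tfdp1, an E2F partner detected on all 6 arrays, was higher by 3.33 ± 0.13. Of 30 mitosis genes 19 were measured, 12 higher and 4 lower, but of the 10 detected on all 6 arrays 4 were higher and 4 lower, with a median of 0.03. Top2a, a topoisomerase detected on 5 of 6 arrays, was higher by 2.73 ± 0.17, and Cdk1, the mitotic kinase, was at least 3.37-fold higher. Among those detected on all 6 arrays, the spindle motor Kif23 fell by 1.94 ± 0.30, the centromere histone Cenpa fell by 1.61 ± 0.16 and the condensin subunit Smc4 fell by 1.21 ± 0.22, 3 genes that were also picked after their values were seen.

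Within the CD69+ fraction, the tolerant array carried lower levels of most replication genes than the other arrays. These comparisons set 1 array against 1 and have no test. All 40 kept genes were detected on all 3 CD69+ arrays, and in 37 the tolerant array was the lowest, against 44.4% of all features detected there and 69.1% of those called higher in CD69+ cells. The 3 exceptions were Rfc1, Rpa1 and Prim2. The tolerant minus naive difference was below 0 in 37 of 40 genes, against 52.5% of all features and 79.8% of those called higher in CD69+ cells. The median tolerant minus naive difference was -0.48 log2 units over the 40 genes. It was -0.02 over all features and -0.31 over those called higher in CD69+ cells. At least 1.5-fold lower in tolerant cells were 15 genes, against 9.93% of all features and 20.5% of those called higher in CD69+ cells, and 0 genes were at least 1.5-fold higher, against 11.5%. The differences ran from -1.41 for Rad54b to 0.10 for Rfc1, with -1.25 for Mcm10, -1.05 for Cdc6, -1.03 for Cdc45, -1.02 for Gins1 and -0.98 for Rrm2 next to Rad54b. The Mcm ring, by contrast, ranged from -0.71 for Mcm5 to -0.15 for Mcm7.

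Rejecting and naive CD69+ cells were closer to each other. The median rejecting minus naive difference was 0.09, 29 genes lay above 0 and 11 below, where 52.2% of all features and 74.6% of those called higher in CD69+ cells lay below 0. At 1.5-fold or more there were 0 of 40 genes in either direction, against 2.52% of all features at least 1.5-fold higher and 0.934% lower. The largest was Dnmt1 with 0.48. Against tolerant CD69+ cells, rejecting CD69+ cells were below in 1 of 40 genes, against 47.8% of all features, and above in 39, against 2070 of 2901 features called higher in CD69+ cells. The median was 0.51, against 0.02 over all features and 0.18 over those called higher in CD69+ cells. At least 1.5-fold higher were 16 genes and 0 lower, against 7.42% and 8.3% of all features. Of the 2901 features called higher in CD69+ cells, 333 were at least 1.5-fold higher and 152 lower. This comparison and the one with naive cells share the tolerant array.

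Levels of other gene lists moved on the same arrays, so the lower tolerant level was not particular to the replication genes. Mitosis genes detected on all 3 CD69+ arrays were lowest on the tolerant array in 12 of 16 cases. The same held for 14 of 19 E2F and G1/S regulators and 26 of 35 further replication genes. Median tolerant minus naive differences were -0.50, -0.38 and -0.29 in that order. The rejecting minus tolerant medians were 0.87, 0.39 and 0.29. In tolerant against naive CD69+ cells the log2 difference was -0.46 for Cd69, -1.32 for Il2, -0.85 for Irf4, -0.58 for Il2ra, -0.41 for Egr2 and 0.07 for Tnfrsf9. The summed level of the 6 activation genes was 32247 in tolerant CD69+ cells, 47504 in rejecting CD69+ cells and 48580 in naive CD69+ cells. The 3 measured erythroid markers of 6 summed to 1258 in tolerant CD69+ cells, 5171 in rejecting CD69+ cells and 5397 in naive CD69+ cells. Cd79b and Blk, the 2 measured B cell markers, summed to 1903 in tolerant CD69+ cells, 579 in rejecting CD69+ cells and 807 in naive CD69+ cells. Of the 5 plasma cell genes, Mzb1 stood at 11.44 in tolerant CD69+ cells, 8.11 in rejecting CD69+ cells and 7.54 in naive CD69+ cells, and Xbp1 at 13.48, 13.74 and 13.54. The 4 measured class II genes of 7 summed to 9402 in tolerant CD69+ cells, 11529 in rejecting CD69+ cells and 7006 in naive CD69+ cells, with H2-Eb1 1.34 log2 units above naive in tolerant cells. These 4 genes did not move together. Rejecting minus tolerant in CD69+ cells was 0.97 for H2-DMa, the brightest of them, but -1.11 for H2-Eb1, -0.62 for Cd74 and -0.36 for H2-Ab1. The 3 measured natural killer genes of 6 summed to 660 in tolerant CD69+ cells, 487 in rejecting CD69+ cells and 401 in naive CD69+ cells. The part of these lists in the lower replication levels was not tested.

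In the CD69- fraction the statuses lay nearer together. Over the 28 genes detected on all 3 CD69- arrays, the median tolerant minus naive difference was -0.06. In CD69+ cells the same 28 genes had a median of -0.37. In CD69- cells 17 of them lay below 0 (44.4% of all features did) and 11 above. The tolerant array was the lowest in 13 of the 28, against 29.5% of all features, and 0 genes reached 1.5-fold, against 2.46% of all features lower and 1.42% higher. Left out here are genes below detection on some CD69- array, among them Uhrf1 at -1.03 and Gins1 at -0.53, both undetected on the tolerant array. The rejecting minus naive median was -0.03, with 15 genes below 0 (52.3% of all features were), and 0 reached 1.5-fold, against 1.46% of all features lower and 2.21% higher. Between rejecting and tolerant CD69- cells 1 gene, Cdca7, was at least 1.5-fold higher, by 0.80 log2 units, and 0 lower, against 4.39% of all features higher and 3.76% lower. In that comparison 11 genes lay below 0, against 54.9% of all features. The CD69+ minus CD69- difference was smallest in the tolerant pair in 24 of the 28 genes detected on all 6 arrays, against 40.6% of all such features, and in 20 of the 24 called higher, against 65.5%. This difference between statuses has no test, because no combination was repeated.

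**Figure D5:**
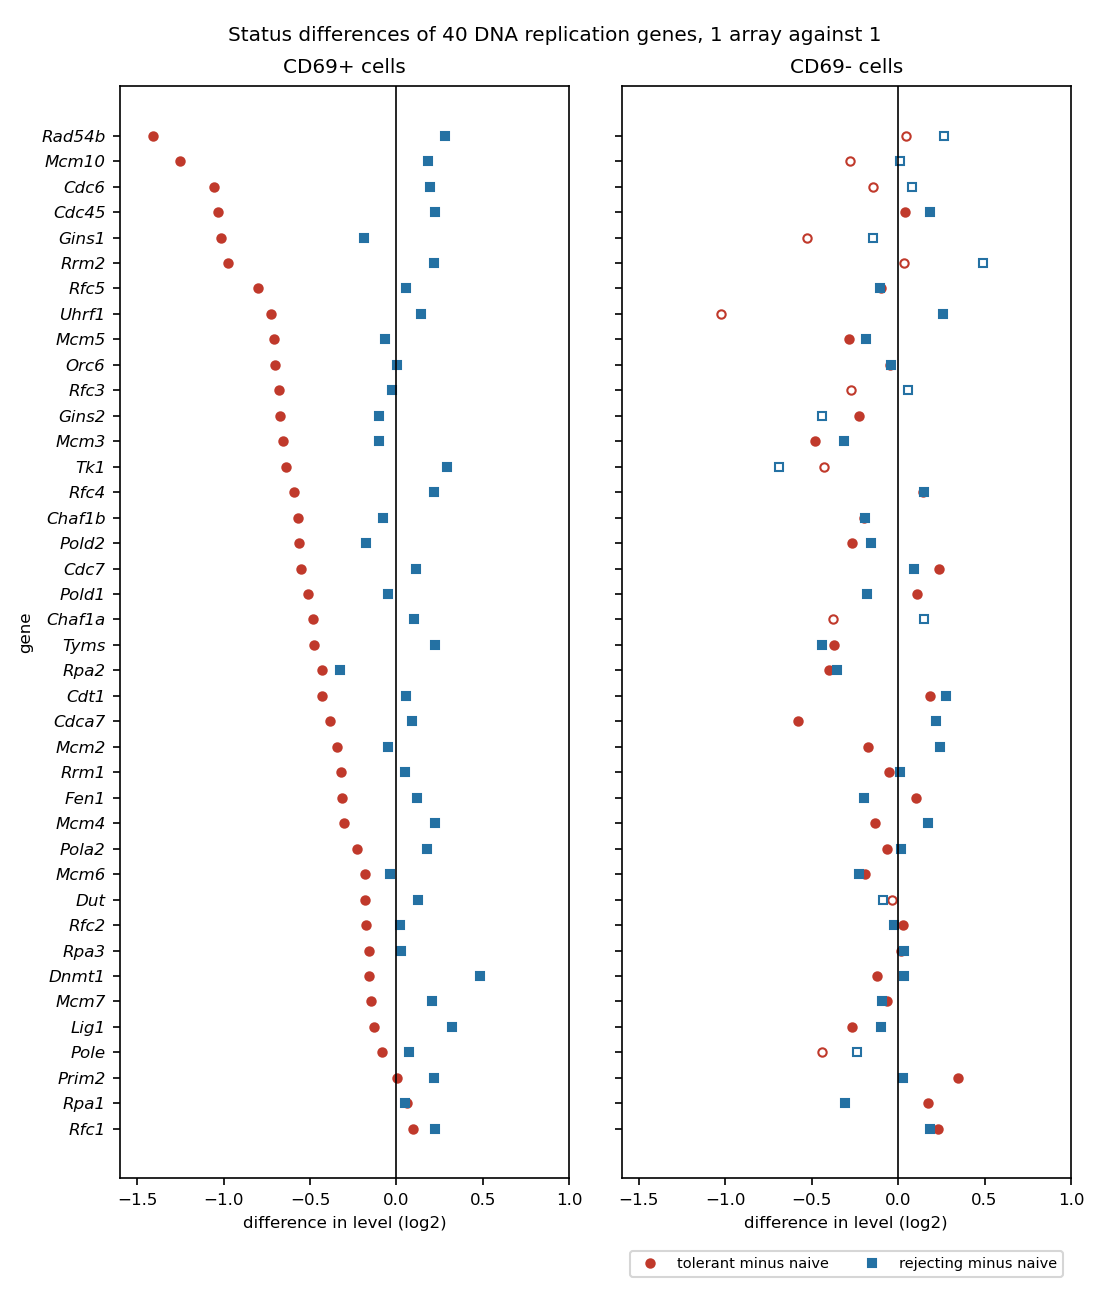
Differences between statuses in log2 units for each kept gene within CD69+ cells and within CD69- cells, tolerant minus naive as circles and rejecting minus naive as squares, open unless the gene was detected on both arrays compared. In CD69+ cells the circles lie below 0 for 37 of 40 genes, while the squares lie on both sides of 0.

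Over both fractions together, with fraction as a block and 2 arrays against 2, no status contrast reached the threshold for any replication gene. The fit assumes the same status difference in both fractions. A difference in 1 fraction alone is averaged down and adds to the residual, so the lack of calls cannot decide on such differences. In limma 0 of 40 genes were called for tolerant against naive, rejecting against naive and rejecting against tolerant, with 9, 1 and 8 genes at an unadjusted p under 0.05. The share of all features with such a p was 12.1%, 4.75% and 14.2%, and of all 10676 features 0.00937% were called higher in tolerant than in naive cells, 0% in either direction for rejecting against naive, and 0.00937% in each direction for rejecting against tolerant. The smallest adjusted p among replication genes was 0.403 for tolerant against naive, 0.968 for rejecting against naive and 0.168 for rejecting against tolerant, the last for Uhrf1 at 1.08. Median differences were -0.32 for tolerant minus naive, 0.03 for rejecting minus naive and 0.31 for rejecting minus tolerant. Without the tolerant CD69+ array the median was -0.09 for tolerant minus naive and 0.08 for rejecting minus tolerant, and without the tolerant CD69- array -0.51 and 0.50. Without the tolerant CD69- array, 5 genes were called lower in tolerant than in naive cells (Mcm10, Gins1, Cdc45, Rad54b and Cdc6), and 5 were called higher in rejecting than in tolerant cells (Mcm10, Cdc45, Rrm2, Rad54b and Cdc6). That fit holds 1 tolerant array, assumed to vary like the other groups, and Mcm10, Rad54b, Cdc6 and Rrm2 were below detection on every CD69- array.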

How the data were processed

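RNA of 6 sorted T cell samples was measured on single-colour Illumina arrays, 1 per combination of status and fraction, grouped by sample title. The deposited non-normalized table gives, per the file headers, a linear intensity and a detection p-value for each of 45281 probes. GenomeStudio 2009.2 was the authors' software, per the submitters' processing notes. Their deposited value table holds quantile-normalized linear intensity values with a median of 168.3 on every array. In the CD69 fit it called 6820 features, as did quantile normalization without background correction. Whether any other step was applied is not given in the sources used here.

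From these, log2 levels were made in limma 3.58.1 (R 4.3.3) by normexp (negative controls estimated through the detection p-values, offset 16) and quantile normalization. Named by platform annotation were 34885 probes with 1 symbol, while 18 had several and 10378 were unlisted; 34881 matched the gene table of GRCm38.p6. The CD69 fit has status as a block, since each status gave both fractions, and status contrasts have fraction as a block, each with 2 residual degrees of freedom. P-values measure how differences vary between statuses or fractions, which may be technical. Genes described array by array are, in each role, those with the largest and smallest CD69 difference, those not called, and the extremes of tolerant minus naive in CD69+ cells. The code was tested on simulated data. The replication genes and the other lists were chosen with earlier results of these data known. No slide, scan or hybridisation batch is given, so none was fitted.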

Additional observations from a re-analysis of the deposited data

Results flagged for a closer look

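Several replication genes had differences of opposite sign in the 2 fractions or pairs, at least 1.5-fold apart. Some of the CD69- values were very small, such as -0.0045 for Rfc5 and 0.038 for Cdc45, so their sign carries little. The share of all features with such a pattern is not given here. Each value compares single arrays, and the difference between the fractions was not tested. Tolerant minus naive was -0.43 in CD69+ cells and 0.19 in CD69- cells for Cdt1, -0.56 and 0.24 for Cdc7, -1.03 and 0.038 for Cdc45, -0.59 and 0.15 for Rfc4, and -0.51 and 0.11 for Pold1. Rejecting minus tolerant was 0.67 in CD69+ cells and -0.15 in CD69- cells for Cdc7, 0.86 and -0.0045 for Rfc5, 0.46 and -0.29 for Pold1, 0.43 and -0.30 for Fen1, and 0.70 and -0.074 for Tyms. Rejecting minus naive was 0.22 in CD69+ cells and -0.44 in CD69- cells for Tyms. For Cdc7 the CD69+ minus CD69- difference was -0.27 in the tolerant pair and 0.55 in the rejecting pair. The comparisons of tolerant mice share the same 2 tolerant arrays.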

How the results depend on the processing

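Recomputed under the alternatives, 468 values of the 40 genes for CD69+ against CD69- cells stayed in direction and on their side of the threshold in 448 cases. Of the others, 13 lost the call, 6 gained it and 1 reversed, Rpa2 at -1.71 on its dimmer probe. Much of this agreement was fixed in advance. The second probe setting changed the probe of only 14 genes. Settings that changed only the detection filter, the variance model or the block left levels and direction as they were. The number called higher was 36, and 34 without the replicate block and with the second probe, 24 of 28 where detection was required on all 6 arrays (fewer genes tested), and 30 to 37 with a pair left out. The number called lower, 0, became 1 in 7 settings: Rpa1 with detection on all 6 arrays, with an intensity trend and robust variance, with no background correction, with an offset of 50 and in the authors' value table, Pole2 with no detection filter, and Rpa2 with the second probe; the cause was not tested. No background correction and the authors' value table each called 6820 features with the same medians, so these settings are near copies of each other and not separate checks. For rejecting against tolerant over both fractions, 1 gene (Uhrf1) was called with an intensity trend and robust variance. With an array left out, 0 to 5 genes were called for tolerant against naive and for rejecting against tolerant, and the rejecting minus naive median ran from -0.11 to 0.16; it was -0.02 under median centring. Median centring moved the CD69 split of all features to 3624 higher and 2616 lower, against 3165 and 3532, and their median to 0.09, against -0.05. Leaving out a pair lowers the degrees of freedom as well as the sample number. With 1 array per combination, differences within a fraction have no error, and genes below detection have only bounds. Slide as a block was not run, since slides are not given.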
